A study of Mus musculus with 17 samples.

Results

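Arl4d, Arl4a, Arl4c, Arl5a and Arl5b belong to the Arl4 and Arl5 branches of the Arf-like small GTPases. They were followed in mouse hippocampus together with Gm38257, a transcript annotated inside an intron of Arl5b. These 6 genes were taken by Ensembl identifier out of the 55471 genes in the count table, and all 6 had counts in every library. Arl5c, also of the Arl5 branch, was not among them and was listed with the other Arf-like GTPases below. The branches were selected on the measured response of Arl4d, Arl5b and Gm38257 to pentylenetetrazole (PTZ) in the same libraries, that is, on their log2 fold changes with PTZ and the loss of these in the mutant. All values of that response and of its difference between genotypes are therefore given as descriptions, without a test.

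The libraries came from total RNA of the hippocampus of single male C57BL/6 mice (C57BL/6J in the study's methods), 3 to 6 months old, and each of the 17 libraries used here is 1 mouse. CBP-ifKOs carried floxed Crebbp and Camk2a-creERT2, a tamoxifen-inducible Cre that is active in excitatory neurons of the adult forebrain, so that glia, interneurons and other cells of the tissue kept intact CBP. All mice, controls included, received 5 doses of tamoxifen. The sample labels list Camk2a-creERT2 for the controls as well, whereas the study's methods describe control littermates without the Cre transgene. Sal mice had saline and no kindling. PTZ0 and PTZ45 mice received repeated PTZ, a GABA-A receptor blocker that provokes seizures, at 45 mg/kg as a kindling protocol. After 1 week they received saline (PTZ0) or PTZ at 45 mg/kg (PTZ45). By the study's report, seizures appeared progressively in controls during kindling, whereas no CBP-ifKO reached that stage. Seizures during kindling therefore differed with genotype, and their part in the genotype differences was not tested. Tissue was taken 45 min after that last injection. Each genotype had 3 libraries per condition, except Control PTZ45 with 2.

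Proteins of the Arf family are molecular switches of membrane traffic, active when bound to GTP. Arl4 proteins sit at the plasma membrane and in the nucleus and recruit cytohesins, exchange factors that activate Arf6 and so link Arl4 to actin and endosomal recycling. Arl5 proteins act at the trans-Golgi network, where they recruit the GARP complex, a tether for vesicles that return from endosomes. In neurons, Arf6 and its regulators are known for roles in dendrite branching and spine shape, and PTZ seizures are a classic trigger of immediate early genes such as Fos and Npas4, which encode activity-induced transcription factors. CBP, the product of Crebbp, is a lysine acetyltransferase that binds phosphorylated CREB at the cAMP response element.

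The genes lie on 4 chromosomes of GRCm38. Arl4d (ENSMUSG00000034936) spans chr11:101665541-101667832 on the plus strand with 1382 exonic bases. Arl5b (ENSMUSG00000017418) spans chr2:15049395-15082456 on the plus strand, with 10428 exonic bases. Gm38257 (ENSMUSG00000102258), of the biotype TEC (a provisional class of transcripts awaiting experimental support), is a single exon of 2761 bases at chr2:15056713-15059473 on the same strand. It lies in intron 1 of the transcript Arl5b-202, 1138 bases after the preceding exon and 8665 bases before the next, and shares 0 bases with Arl5b exons. Arl5a (ENSMUSG00000036093, chr2:52397951-52424901), Arl4a (ENSMUSG00000047446, chr12:40005447-40038025) and Arl4c (ENSMUSG00000049866, chr1:88673125-88702221) are on the minus strand. Nsun6 runs on the opposite strand and overlaps the start of the Arl5b locus. Whether counting used the strand is not given in the sources used here, so reads of Nsun6 in the shared stretch and reads of Arl5b cannot be told apart there.

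The promoters of Arl4d and Arl5b are shown because these were the Arl genes whose level rose in controls after PTZ and because both hold the cAMP response element in its full form, TGACGTCA. The windows run from 250 bases before to 50 bases after the start in RefSeq (GRCm38.p6), on the plus strand, at chr11:101665291-101665590 and chr2:15055070-15055369, with TGACGTCA in capitals.
Arl4d: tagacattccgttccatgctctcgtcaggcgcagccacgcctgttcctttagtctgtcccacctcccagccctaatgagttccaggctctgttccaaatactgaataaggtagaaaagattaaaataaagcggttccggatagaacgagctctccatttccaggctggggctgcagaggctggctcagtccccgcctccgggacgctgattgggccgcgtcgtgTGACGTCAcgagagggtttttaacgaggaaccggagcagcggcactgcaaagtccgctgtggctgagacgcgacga
Arl5b: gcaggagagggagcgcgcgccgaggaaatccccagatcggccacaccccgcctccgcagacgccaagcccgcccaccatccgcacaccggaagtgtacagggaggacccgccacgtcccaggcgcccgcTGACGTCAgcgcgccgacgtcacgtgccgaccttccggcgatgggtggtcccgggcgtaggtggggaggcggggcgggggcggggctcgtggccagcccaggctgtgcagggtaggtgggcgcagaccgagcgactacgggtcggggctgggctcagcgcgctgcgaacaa
In Arl4d the element occupied positions -26 to -19 from the start, and in Arl5b positions -121 to -114. It was found in 2 of the 5 genes that had a window, none being listed for Gm38257, and in 1.79% of 32851 promoter windows of the same length in the mouse annotation. The shorter core TGACG, which every full element contains on each strand, was far commoner. It was in the windows of 4 of the 5 genes (Arl4a, Arl4c, Arl4d and Arl5b) and in 20.8% of all windows. Arl5b also held an EGR motif (GCGNGGGCG, in 5.55% of all windows) at positions -48 to -40. An E-box (CACGTG, in 7.15%) lay at positions -101 to -96 of the same window and shared bases with a TGACG on the minus strand at -104 to -100. CCAAT, present in 37.4% of all windows, was in 4 of the 5 genes, and an AP-1 motif (TGANTCA, in 7.81%) was in Arl4a only. TATAAA (13.6%) and the CArG box of serum response factor (1.63%) were in 0 of the 5. Both strands were searched for each motif. The Arl5b window begins next to the start of Nsun6 on the minus strand (chr2:14995131-15055069). Its matches therefore lie between the start of Nsun6 and this start of Arl5b. All these matches describe letters in the windows and not bound sites.

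The libraries held between 5831992 counts (CBP-ifKO Sal replicate 2) and 18735643 counts (CBP-ifKO Sal replicate 1), and levels are given as counts divided by DESeq2 size factors, called normalized counts. Crebbp lay between 1824 and 2429 normalized counts in controls and between 1061 and 1337 in CBP-ifKOs, without overlap. Counts cover the whole gene, so the transcript without the deleted exons is counted too. All 5 neuronal markers (Camk2a, Slc17a7, Neurod6, Rbfox3 and Snap25) were detected in every library, with sums of 45270 to 56960. Sums over CA1 markers were 2103 to 2722 in controls and 1456 to 1963 in CBP-ifKOs, without overlap, and those over CA3 markers did not overlap between genotypes within any condition (1679 to 2599 over all libraries). In PTZ45 the CA1 sums were 2103 and 2528 in controls and 1456 to 1593 in CBP-ifKOs, and the part of this in the genotype differences was not tested. Interneuron sums were lower in CBP-ifKO Sal (5341 to 5665) than in Control Sal (6144 to 6150) and in CBP-ifKO PTZ45 (5666 to 5970) than in Control PTZ45 (6211 and 6346), and overlapped in PTZ0. Choroid plexus markers reached sums of 10550 to 43060 in 1 library of every group other than Control PTZ45, where they were 743.2 and 864.9.  Control Sal and Control PTZ0 were sequenced in lane 3, CBP-ifKO Sal and Control PTZ45 in lane 4, and CBP-ifKO PTZ0 and CBP-ifKO PTZ45 in lane 5. Within a treatment, genotype and lane therefore cannot be told apart. Nor can PTZ45 and lane be told apart in controls (lane 4 against lane 3 for both baselines) or in CBP-ifKOs against Sal (lane 5 against lane 4). The same holds for PTZ0 against Sal in CBP-ifKOs (lane 5 against lane 4). This limits every difference in these comparisons, those of Arl5b among them. PTZ0 against Sal in controls and PTZ45 against PTZ0 in CBP-ifKOs lay within a lane. Nothing pools the mice, and p-values measure the spread between these single-mouse libraries. In whole tissue, fewer cells of a type and less RNA per cell cannot be told apart.

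The Arl4 branch held the largest change among the 6 genes, in Arl4d. In controls, the Arl4d level was 90.4, 80.0 and 76.8 normalized counts in Sal, 72.9, 41.0 and 89.5 in PTZ0, and 911.8 and 709.5 in PTZ45. Both PTZ45 libraries were far above every other control library. In CBP-ifKOs the level was 48.0, 74.7 and 81.3 in Sal, 45.0, 56.3 and 60.7 in PTZ0, and 65.2, 57.0 and 66.0 in PTZ45. The PTZ45 libraries of CBP-ifKOs overlapped their Sal and PTZ0 libraries. Ordered by mean, Control PTZ45 (810.6 ± 143.0, SD, n = 2) was followed by Control Sal (82.4 ± 7.08, n = 3), CBP-ifKO Sal (68.0 ± 17.6), Control PTZ0 (67.8 ± 24.6), CBP-ifKO PTZ45 (62.7 ± 5.00) and CBP-ifKO PTZ0 (54.0 ± 8.08). Each of the last 5 groups overlapped its neighbour in this order. CBP-ifKO Sal, sequenced in the same lane as Control PTZ45, held 48.0 to 81.3 normalized counts of Arl4d against 709.5 and 911.8.

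**Figure D1:**
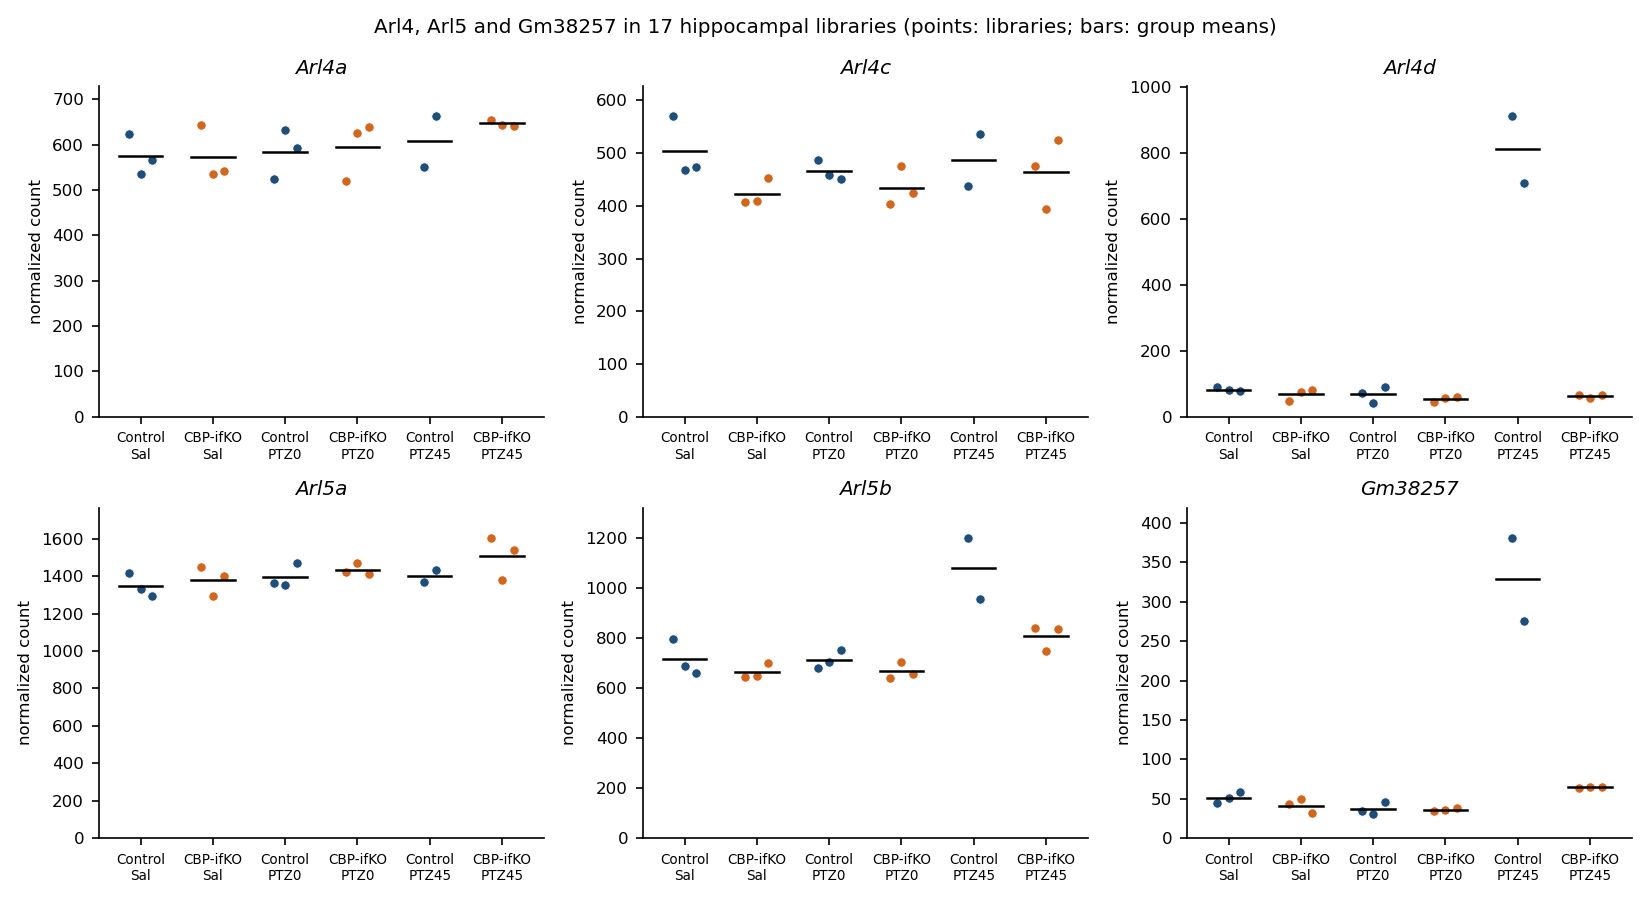
Normalized counts (counts divided by DESeq2 size factors, linear axis from 0) of the 6 genes, 1 panel per gene, with 1 point per library (blue, controls, and orange, CBP-ifKOs) and a bar at each group mean. Arl4d in both Control PTZ45 libraries (709.5 and 911.8) stood above all 15 other libraries (41.0 to 90.4), as did Gm38257 (276.0 and 381.2 against 30.5 to 65.0), whereas Arl4a (520 to 663), Arl4c (394 to 570) and Arl5a (1293 to 1606) had no such step.

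As a fold, Arl4d was 9.79 times higher in Control PTZ45 than in Control Sal (log2 fold change 3.29, SE 0.17) and 11.9 times higher than in Control PTZ0 (log2 fold change 3.57, SE 0.41). It ranked 9 by fold among the 163 genes called higher against Sal, where called means a DESeq2 adjusted p under 0.05. In CBP-ifKOs the log2 fold change of Arl4d was -0.10 (SE 0.28) against Sal and 0.20 (SE 0.27) against PTZ0. On the linear scale the CBP-ifKO rise over Sal was -0.725% of the control rise (SE 1.45), and over PTZ0 it was 1.17% (SE 0.756). The difference between genotypes in the PTZ45 response, as a log2 value, was -3.38 (SE 0.29) over Sal and -3.36 (SE 0.30) over PTZ0. Within PTZ45, CBP-ifKOs were lower than controls by a log2 fold change of -3.69 (SE 0.19).

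Arl4a and Arl4c, the other Arl4 genes, stayed within a narrow range over all conditions. Arl4a lay between 520 and 663 normalized counts over the 17 libraries and Arl4c between 394 and 570. In controls, the log2 fold change of PTZ45 against Sal was 0.07 (SE 0.13) for Arl4a and -0.06 (SE 0.14) for Arl4c, with 95% intervals of -0.18 to 0.32 and -0.33 to 0.22. In CBP-ifKOs it was 0.16 (SE 0.11) and 0.13 (SE 0.13). The 3 Arl4a libraries of CBP-ifKO PTZ45 (641.4 to 655.0) lay just above those of CBP-ifKO PTZ0 (519.9 to 637.9), with a log2 fold change of 0.12 (SE 0.11) that was not called. Per kilobase of exon, Arl4d in control Sal and PTZ0 and in all CBP-ifKO groups averaged 39.1 to 59.6 normalized counts, below the group means of Arl4a (74.5 to 84.0) and Arl4c (77.1 to 91.8). In Control PTZ45 the level of Arl4d per kilobase was 586.6, against 78.8 for Arl4a and 88.8 for Arl4c.

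In the Arl5 branch, Arl5b was higher after PTZ and Arl5a, its closely related paralog, was level. The Arl5b level in controls was 796.3, 688.3 and 662.7 normalized counts in Sal, 682, 707 and 753 in PTZ0, and 1203.6 and 958.3 in PTZ45. Both Control PTZ45 libraries were above every other library. In CBP-ifKOs the Arl5b level was 644.4, 649.5 and 699.8 in Sal, 642.8, 705.5 and 657.6 in PTZ0, and 841.1, 750.7 and 837.1 in PTZ45. The 3 PTZ45 libraries of CBP-ifKOs were also above their own Sal and PTZ0 libraries, although below both Control PTZ45 libraries. By mean, Control PTZ45 was followed by CBP-ifKO PTZ45, whose libraries overlapped those of Control Sal, and the remaining groups overlapped their neighbours. Arl5b was 1.51 times higher in Control PTZ45 than in Control Sal (log2 fold change 0.59, SE 0.13), and the value against PTZ0 was 0.60 (SE 0.11). Without Control PTZ45 replicate 1 the log2 fold change against Sal was 0.42, and the call was lost, as it was with replicate number as a block. In CBP-ifKOs the values were 0.28 (SE 0.10) and 0.27 (SE 0.10). The CBP-ifKO rise was 39.7% of the control rise over Sal (SE 16.9) and 38.5% over PTZ0 (SE 16.2). Without Control PTZ45 replicate 1 these shares were 59.8% and 57.8%, an alternative chosen after the data were seen.

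Arl5a varied between 1293 and 1606 normalized counts over all libraries. It had a log2 fold change for PTZ45 against Sal of 0.05 (SE 0.09) in the control mice, and in the CBP-ifKOs of 0.12 (SE 0.09). Per kilobase of exon it was the most abundant of the 6 genes outside Control PTZ45, with group means of 248.9 to 278.9 normalized counts.

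Gm38257 followed the same order of groups at the top as Arl5b but with a larger fold. In controls, the Gm38257 level was 45.2, 50.5 and 58.8 normalized counts in Sal, 34.2, 30.5 and 45.7 in PTZ0, and 381.2 and 276.0 in PTZ45. Both Control PTZ45 libraries were above every other library. In CBP-ifKOs the level was 42.9, 49.8 and 31.8 in Sal, 34.1, 35.3 and 38.6 in PTZ0, and 64.1, 65.0 and 64.8 in PTZ45. The CBP-ifKO PTZ45 libraries were above all Sal and PTZ0 libraries of both genotypes, and the 4 Sal and PTZ0 groups overlapped each other in the order of their means. The fold over Sal was 6.40 in controls (log2 fold change 2.68, SE 0.22) and 1.60 in CBP-ifKOs (0.67, SE 0.29). Over PTZ0, the log2 fold changes were 3.15 (SE 0.24) for controls against 0.84 (SE 0.29) for CBP-ifKOs. On the linear scale, the CBP-ifKO rise of Gm38257 was 8.36% of the control rise over Sal (SE 2.48) and 9.82% over PTZ0 (SE 1.84).

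In Control PTZ45, Gm38257 rose more than Arl5b exons relative to its level. The Gm38257 level as a percentage of the Arl5b level in the same library had group means of 5.13% to 7.29% in Sal and PTZ0 of both genotypes, 30.2% ± 2.03 (SD, n = 2) in Control PTZ45 and 8.01% ± 0.563 (SD, n = 3) in CBP-ifKO PTZ45. Both Control PTZ45 libraries (28.8% and 31.7%) were above all others (4.31% to 8.87%). Per kilobase, the control rise over Sal was 100.4 normalized counts for Gm38257 and 35.02 for Arl5b exons, and the CBP-ifKO rise was 8.39 and 13.9. A separate transcript and unspliced Arl5b RNA from the same intron cannot be told apart in these counts.

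**Figure D2:**
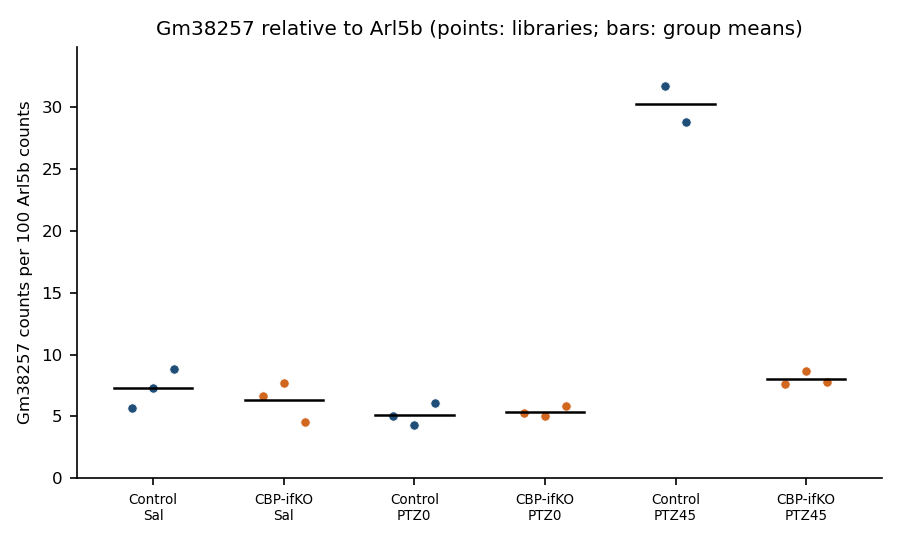
Gm38257 counts per 100 Arl5b counts, that is, the percentage given above, in each library by group, with points for libraries (blue, controls, and orange, CBP-ifKOs) and a bar at each group mean. The Control PTZ45 libraries sit at 28.8 and 31.7 and all other libraries between 4.31 and 8.87.

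Counted over the 6 genes, PTZ45 against Sal in controls called 3 higher (Arl4d, Arl5b and Gm38257), beside 0.939% of 17367 genes tested that were called higher and 1.17% called in either direction, and against PTZ0 the same 3, beside 1.18% and 1.25%. In CBP-ifKOs the DESeq2 test called 0 of the 6 against Sal, beside 0.294% of all genes, and 0 against PTZ0, beside 0.0872%. At an unadjusted p under 0.05 it would have named 2 in each, Arl5b and Gm38257, and edgeR also called 0 in each with 2 at that level. The genotype difference in the response called 2 of the 6 (Arl4d and Gm38257) over Sal, beside 0.329% of all genes, and the same 2 over PTZ0, beside 0.423%. For Arl5b that difference was -0.31 (SE 0.16) over Sal and -0.32 (SE 0.14) over PTZ0, as log2 values, and without Control PTZ45 replicate 1 it was -0.14 and -0.15. CBP-ifKOs against controls in PTZ45 called 3 of the 6 lower, beside 2.82% of all genes called lower and 3.07% in either direction, with -3.69 for Arl4d, -2.35 (SE 0.22) for Gm38257 and -0.42 (SE 0.12) for Arl5b. These counts restate values that guided the choice of the genes, and nothing is read from them. The Sal and PTZ0 comparisons share the Control PTZ45 or CBP-ifKO PTZ45 libraries and are not independent of each other. The Arl5b call within PTZ45 was also lost without Control PTZ45 replicate 1 (-0.24) and without each CBP-ifKO PTZ45 replicate in turn. It was lost too with a correction for GC content (-0.40) and with replicate number as a block.

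**Figure D3:**
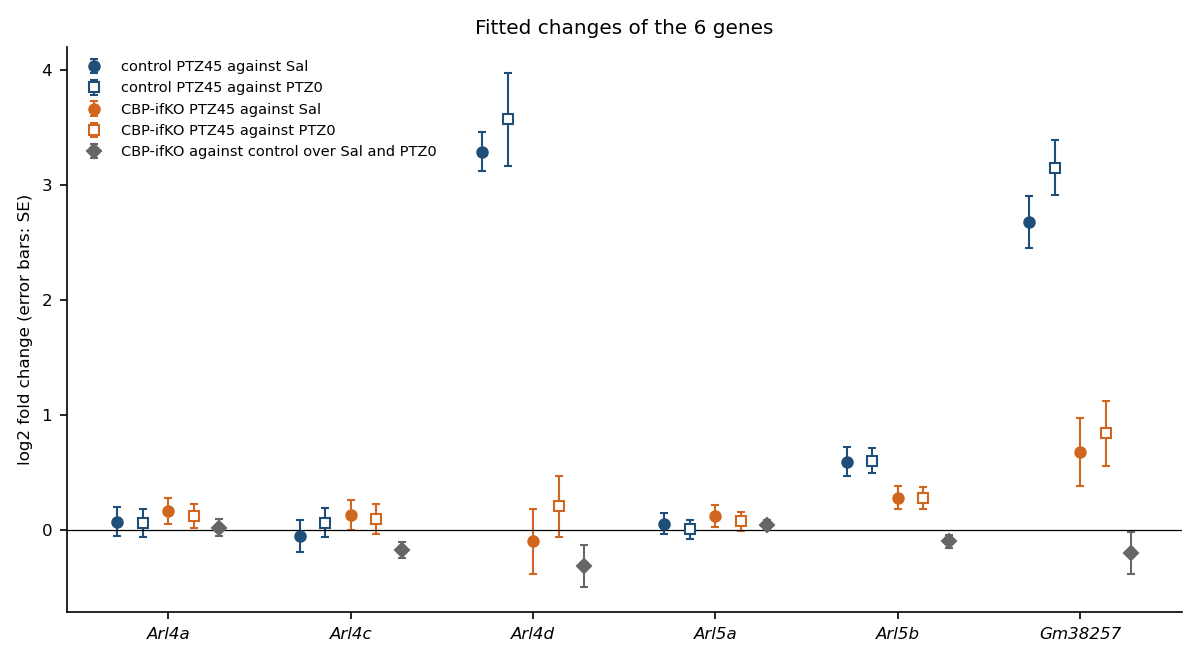
Log2 fold changes of the 6 genes from DESeq2 (vertical axis, error bars SE) for PTZ45 against Sal (filled circles) and against PTZ0 (open squares) in controls (blue) and CBP-ifKOs (orange), and for CBP-ifKOs against controls over Sal and PTZ0 (grey diamonds). In controls Arl4d (3.29 and 3.57) and Gm38257 (2.68 and 3.15) stand far above 0 and Arl5b is at 0.59 and 0.60, whereas in CBP-ifKOs Arl4d is at -0.10 and 0.20.

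The rise of Arl4d was set beside those of the other genes induced in controls. Of the 152 genes called higher (mean normalized count 50 or more) in Control PTZ45 than in Control Sal, 19 had a CBP-ifKO log2 fold change below 0 and 16 were also called higher in CBP-ifKOs. These genes were selected for a high value in Control PTZ45, which by itself raises their control values, so the medians of both genotypes are a description. The median log2 fold change was 0.88 in controls and 0.17 in CBP-ifKOs, with -0.10 for Arl4d in CBP-ifKOs, a value whose sign changed with a GC correction (0.0046) and over the libraries left out (-0.33 to 0.086). Over PTZ0, 200 such genes had medians of 0.72 and 0.16, and Arl4d in CBP-ifKOs was at 0.20 (0.097 to 0.30 over the libraries left out). Arl4d was not alone, since over Sal 4 of the 15 genes with a control log2 fold change over 3 had a CBP-ifKO value under 0.5. These were Arl4d, Gadd45g (3.10 in controls, 0.03 in CBP-ifKOs), Egr4 (3.21 and 0.28) and Cenpa (3.07 and 0.48). Over PTZ0 they were 2 of 16, Arl4d and Gadd45g (3.31 and 0.02). The rise of Fos left in CBP-ifKOs was 7.60% of that in controls over Sal (SE 1.52) and that of Npas4 was 3.53% (SE 0.896), so both lay above the share left of Arl4d (-0.725%) and below that of Arl5b (39.7%, and 29.7% to 59.8% over the libraries left out). The share of Arl4d ranged from -2.10% to 0.187%. No test was made of the order of these shares. Fos was at 2483 and 2915 normalized counts in Control PTZ45 and at 163.0 to 287.7 in CBP-ifKO PTZ45. Both immediate early genes were among the 17 genes called higher in CBP-ifKO PTZ45 than in CBP-ifKO Sal.

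**Figure D4:**
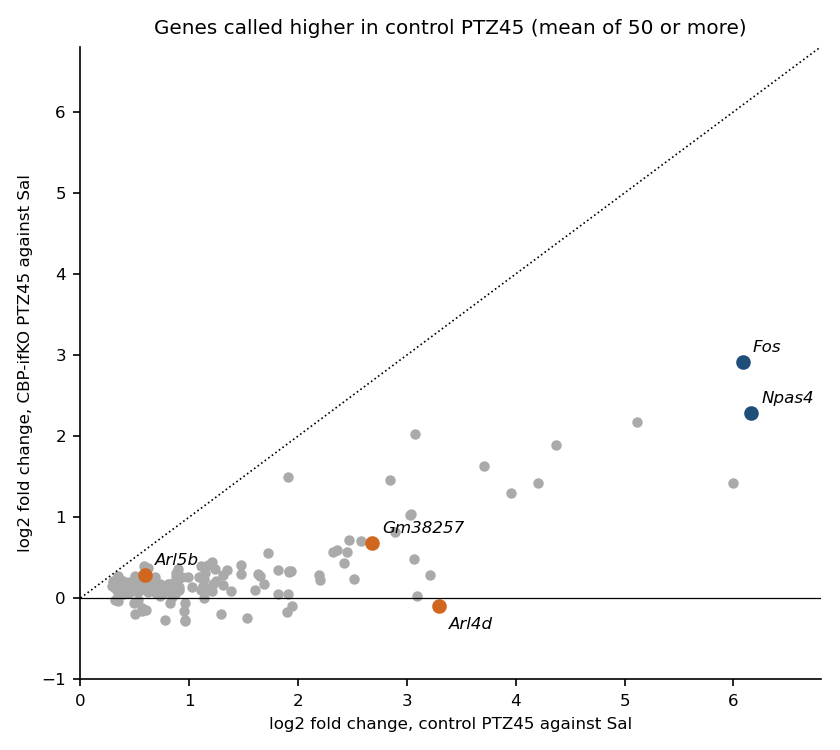
Log2 fold change of PTZ45 against Sal in CBP-ifKOs (vertical) against that in controls (horizontal) for the 152 genes called higher in controls (grey), with Arl4d, Arl5b and Gm38257 in orange and Fos and Npas4 in blue, a solid line at 0 and a dotted line of equal response. Arl4d lies at 3.29 and -0.10, below Gm38257 at 2.68 and 0.67, and Fos and Npas4 lie at the right.

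The comparisons among mice without a last PTZ dose were tested, although the same Sal and PTZ0 libraries are the baselines of the responses on which the genes were chosen. Between genotypes over Sal and PTZ0 together, DESeq2 called 0 of the 6 genes, beside 14.6% of 17398 genes, with 1 at an unadjusted p under 0.05 (Arl4c), and edgeR also called 0 with 1 at that level. Arl4c was lower in CBP-ifKOs by a log2 fold change of -0.18 (SE 0.07, 95% interval -0.32 to -0.03, DESeq2 adjusted p = 0.0858). In Sal its 3 CBP-ifKO libraries (407.4 to 453.7) were below the 3 control libraries (467.9 to 570.4), whereas in PTZ0 the groups overlapped. The log2 fold change of Arl4d was -0.32 (SE 0.18, 95% interval -0.67 to 0.04, DESeq2 adjusted p = 0.26). That of Arl5b was -0.10 (SE 0.06, interval -0.22 to 0.01, DESeq2 adjusted p = 0.27), and that of Gm38257 was -0.20 (SE 0.18, interval -0.56 to 0.16, DESeq2 adjusted p = 0.53). Arl4a (0.02, interval -0.13 to 0.16) and Arl5a (0.04, interval -0.04 to 0.13) had DESeq2 adjusted p values of 0.918 and 0.608.

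Taken by condition, CBP-ifKOs against controls in Sal called 0 of the 6 genes, beside 2.04% of all genes, and Arl4c was the member at an unadjusted p under 0.05 in DESeq2 (log2 fold change -0.26, SE 0.12), with edgeR also calling 0 and 1 gene at that level. In PTZ0 they called 0 of the 5 with an adjusted p, beside 6.68%, with 0 at an unadjusted p under 0.05 in DESeq2 and 0 called by edgeR with 0 at that level. Gm38257 received no adjusted p there, since DESeq2 set its low mean aside. Repeated PTZ without a last PTZ dose moved none of the 6 past the threshold. In CBP-ifKOs, PTZ0 and Sal also differed in lane. PTZ0 against Sal called 0 of 6 in controls, beside 0.00843% of all genes, and 0 of 6 in CBP-ifKOs, beside 0.0112%. DESeq2 had 0 of them at an unadjusted p under 0.05 in either genotype, and edgeR called 0 in either, with 1 and 0 at that level. In controls the largest value was that of Gm38257, with a log2 fold change of -0.48 (SE 0.29, 95% interval -1.05 to 0.10, DESeq2 adjusted p = 0.9998), followed by Arl4d with -0.27 (SE 0.25, interval -0.77 to 0.22). In CBP-ifKOs, Arl4d had -0.30 (SE 0.29, interval -0.87 to 0.26) and Gm38257 -0.17 (SE 0.34, interval -0.82 to 0.49). Single libraries moved the values of Arl4d in both genotypes and of Gm38257 in CBP-ifKOs by over 1.5 times. Gm38257 in controls stayed between -0.66 and -0.37. Over the libraries left out, Arl4d ranged from -0.52 to -0.028 in controls, nearest to 0 without Control PTZ0 replicate 2, and from -0.52 to -0.12 in CBP-ifKOs, nearest to 0 without CBP-ifKO Sal replicate 3. Gm38257 in CBP-ifKOs ranged from -0.34 to -0.055, nearest to 0 without CBP-ifKO Sal replicate 2.

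The other genes of the pathway were taken as lists of Arf GTPases, other Arf-like GTPases, partners of Arl4 and of Arl5, and the exchange factors and GTPase-activating proteins that switch Arfs on and off. For PTZ45 in controls against Sal, DESeq2 called 0 of 6 Arfs, 0 of 15 other Arl and related GTPases, 0 of 12 Arl4 partners, 0 of 8 Arl5 partners and 0 of 25 GTPase-activating proteins, beside 1.17% of all genes. At an unadjusted p under 0.05 these lists held 2, 0, 0, 0 and 2 genes, and edgeR called 0 in each. Of 10 exchange factors, Psd (EFA6A, an activator of Arf6) was called lower, by a log2 fold change of -0.43 (SE 0.09, DESeq2 adjusted p = 0.000802). In CBP-ifKOs Psd was also called lower against Sal, by -0.50 (SE 0.13, DESeq2 adjusted p = 0.0395), the 1 call among 78 tested genes of the 6 lists, beside 0.294% of all genes, and edgeR called 0 of 77. Psd has 61.2% GC in its exons, and after a correction for GC content its values were -0.20 in controls and -0.25 in CBP-ifKOs, and neither was called. Against PTZ0, DESeq2 called 0 of 77 tested genes of these 6 lists in controls and 0 of 80 in CBP-ifKOs, beside 1.25% and 0.0872% of all genes, with 10 and 3 at an unadjusted p under 0.05, and edgeR called 1 and 0. The genotype difference in the response called 0 genes of the lists over Sal and 0 over PTZ0, beside 0.329% and 0.423% of all genes, with 1 and 2 at that level, and edgeR called 0 in both. Shares this low leave lists of this size with few calls or none, and nothing is read from these counts.

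Between genotypes, the lists held more calls, most of them lower in CBP-ifKOs. Markers of some cell types were also lower in CBP-ifKOs, with sums over 3 CA1 markers of 2457 to 2722 normalized counts in Control Sal against 1487 to 1963 in CBP-ifKO Sal, and of 2378 to 2639 against 1549 to 1813 in PTZ0. Sums over 4 astrocyte markers were 18000 to 19130 against 14650 to 17180 in Sal and 18290 to 18890 against 15760 to 17220 in PTZ0. The part of these differences in the calls was not tested. Over Sal and PTZ0, 9 of 25 GTPase-activating proteins were called lower and 2 higher, beside 14.6% of 17398 genes tested (1573 lower and 962 higher), with a list median log2 fold change of -0.12 beside 0.01 for all genes tested. Git1, a scaffold with Arf GAP activity at synapses, was lower by -0.45 (SE 0.07), Acap3 by -0.36 (SE 0.06), Adap1 (centaurin-alpha 1) by -0.34 (SE 0.08), Agfg2 by -0.31 (SE 0.07), Acap2, a GAP for Arf6, by -0.28 (SE 0.04) and Arap2 by -0.21 (SE 0.05). Both called exchange factors of 11 were activators of Arf6, with Psd at -0.44 (SE 0.09) and Psd3 at -0.34 (SE 0.04). Of the Arf GTPases, Arf1 (-0.20, SE 0.05) and Arf3 (-0.19, SE 0.06) were called lower and Arf4 (0.17, SE 0.06) higher, of 6 tested. Of 12 Arl4 partners, Elmo1 (-0.27, SE 0.06), which with Dock proteins activates Rac, and the Rac effector kinase Pak1 (-0.22, SE 0.05) were called lower. Of 15 other Arl and related GTPases, Arl15 was called lower (-0.21, SE 0.08), whereas edgeR called 0 of 15. DESeq2 called 0 of the 8 Arl5 partners, with 0 at an unadjusted p under 0.05, and edgeR called 0 with 1 at that level. Over the 6 lists, DESeq2 called 19 of 77 genes and edgeR 15 of 77, beside 2535 of 17398 and 2570 of 19639 over all genes. Of 25 GTPase-activating proteins, edgeR called 8. With a correction for GC content, 9 GTPase-activating proteins were called, all lower, of which 8 were among the 11 above. Arf4 was not called with it, whereas Gbf1, an exchange factor for Arf1 at the Golgi (0.15, SE 0.05), and Arl10 (0.28, SE 0.10) were called higher. The lane differs with genotype in each condition, and its part in these differences was not tested.

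In single conditions the lists held fewer calls, as did the whole table, with 306 genes called in Sal (2.04%), 852 in PTZ0 (6.68%) and 468 in PTZ45 (3.07%) against 2535 over Sal and PTZ0. In Sal, Psd (-0.47), Psd3 (-0.38), Git1 (-0.40) and Acap2 (-0.31) were called lower by DESeq2, whereas edgeR called 1 gene of the lists, an exchange factor. In PTZ0 the calls were Psd (-0.42), Psd3 (-0.31), Arf1 (-0.25), Pak1 (-0.22) and 7 of 24 GTPase-activating proteins, all lower. In PTZ45, 2 of 10 exchange factors (Psd, -0.53, and Psd3, -0.38) and 5 of 25 GTPase-activating proteins were called lower, with Git1 at -0.49. With the GC correction 3 of these 5 were called, Acap3 and Agap3 not being among them. PTZ0 against Sal called 0 genes of these lists in either genotype with DESeq2 and with edgeR, and at an unadjusted p under 0.05 DESeq2 had 1 for controls against 0 for CBP-ifKOs.

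**Figure D5:**
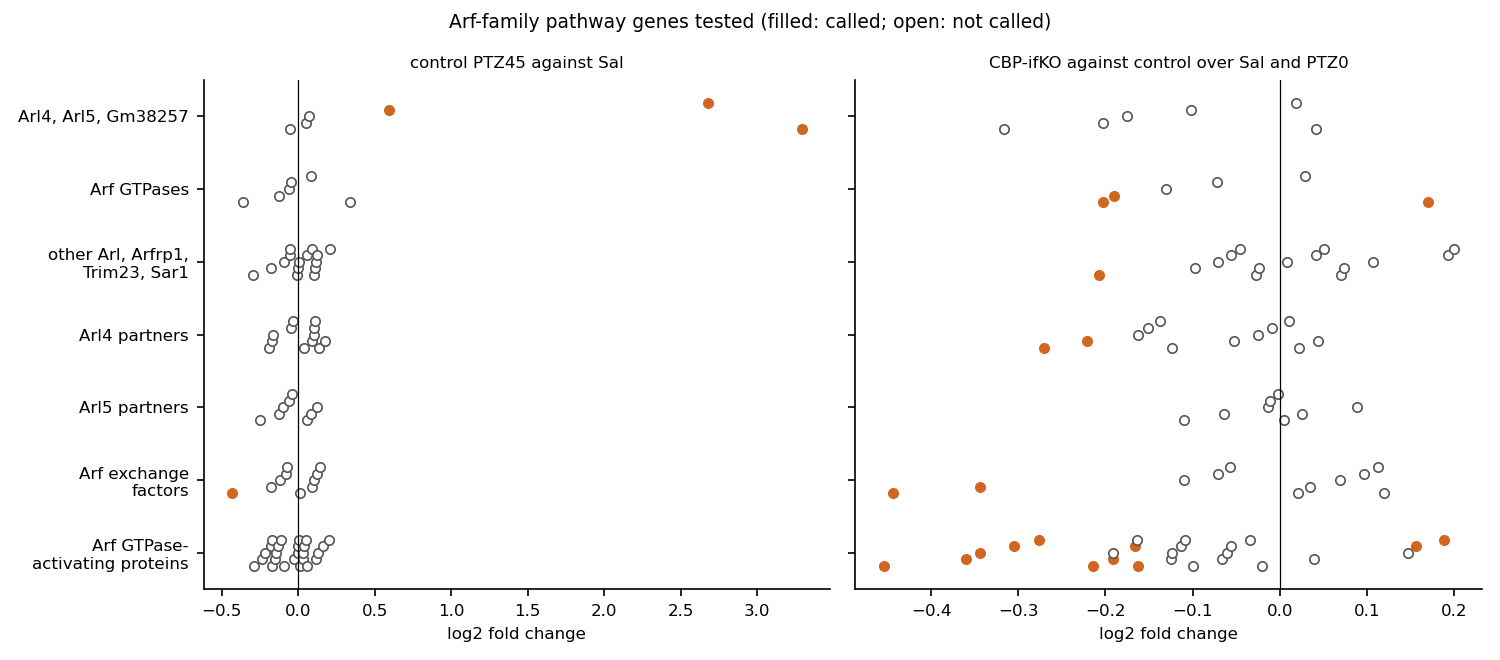
Log2 fold changes (horizontal) of the tested genes of the 6 pathway lists and of the 6 genes studied (top row), 1 point per gene, for PTZ45 against Sal in controls (left) and for CBP-ifKOs against controls over Sal and PTZ0 (right), filled where the DESeq2 adjusted p was under 0.05. On the left Psd, at -0.43, is the filled point outside the top row, and on the right the filled points lie between -0.45 (Git1) and 0.19 (Elmod2).

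The genes whose log2 levels were most like those of the 3 responding genes over the 17 libraries, out of 13040 genes with a mean of at least 50, are given here as a description. Arl4d was closest to Gm13889 (r = 0.96), Rgs2, Junb, Gm45902 and Gadd45g, Arl5b to Dusp6 (r = 0.93), Fbxo33, Rheb, Gm37868 and Dusp1, and Gm38257 to Tiparp (r = 0.97), Gm43361, Btg2, Ovca2 and Gm37868. Rgs2, a regulator of G protein signalling, lay at 1342 and 1395 normalized counts in Control PTZ45 and at 305.0 to 427.5 elsewhere. Gadd45g, a stress-response gene, lay at 469.4 and 562.4 against 38.9 to 73.9. Dusp6, a phosphatase of ERK, lay at 1340 and 1528 against 454.2 to 781.7. All these genes share the step at Control PTZ45, and the likeness rested on it. Without the 2 Control PTZ45 libraries, 0 of the 5 genes of Arl4d, 0 of those of Arl5b and 1 of those of Gm38257 (Tiparp) were again among the closest 5. Likewise the correlation of Arl4d with Gm38257 was 0.93 over 17 libraries and 0.30 over 15, and that of Arl5b with Gm38257 was 0.88 and 0.51.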

How the data were processed

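Raw counts per gene were deposited by the authors for hippocampal total RNA, from single-end 50 base reads. Per the study's methods and processing notes they were trimmed with Trim Galore 0.6.4, aligned to mm10 with STAR 2.6.1, filtered on mapping quality and counted over exons with Rsubread. The authors used DESeq2 1.30.1 for their own comparisons. Of the count columns, 1 matched no sample label and was used nowhere, although its name has the form of the Control PTZ45 columns.

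Here, DESeq2 1.42.0 in R 4.3.3 was fitted to all genes for 12 comparisons of the 6 groups with Wald tests and Benjamini-Hochberg adjustment over all genes tested, and a gene was called at an adjusted p under 0.05. Only the groups of a comparison entered its fit. Alternatives were edgeR 4.0.16 (quasi-likelihood), TMM size factors, a filter of at least 10 counts in 2 libraries, 1 fit of all libraries, a replicate block, a GC correction and leaving out each library. Scripts were tested on simulated data. The most alike genes were ranked by Pearson's r of log2(normalized count + 1). The members and lists were chosen with earlier results of these data known. Named were the 6 members, their 5 most correlated genes, list genes called in a comparison (at most 6 per list, by size), Crebbp, Fos and Npas4. Tiparp among the genes without Control PTZ45, Elmod2, Gbf1, Arl10, Egr4, Cenpa and the transcripts named in the other observations were chosen after their values were seen. Gene positions follow GENCODE M21, to which 99.6% of identifiers matched. Total counts were 5831992 to 18735643 per library. Arl4d and Gm38257 had the lowest means of the 6 genes (154.5 and 79.3 normalized counts), which limits their precision. The number of Control PTZ45 libraries (2) is a further limit.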

Additional observations from a re-analysis of the deposited data

Results flagged for a closer look

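The PTZ45 response differed between genotypes in Arl4d and Gm38257, by the interaction term of DESeq2. For Arl4d the difference, as a log2 value, was -3.38 over Sal and -3.36 over PTZ0. For Gm38257 it was -1.99 over Sal and -2.32 over PTZ0. These values were known when the genes were picked, so they describe the choice and no test is read from them. Controls with PTZ45 numbered 2 libraries.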

How the results depend on the processing

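The number of the 6 genes called stayed within 1.5 times its main value under all 72 combinations of comparison and alternative that kept every library, and under 83 of the 85 that left out 1 library. In PTZ45 against PTZ0 in controls it ranged from 1 to 3 over the libraries left out. The low value came without Control PTZ45 replicate 1, where DESeq2 gave no adjusted p to Arl4d and Gm38257. For CBP-ifKOs against controls over Sal and PTZ0 it ranged from 0 to 1, since Arl4c was called without CBP-ifKO PTZ0 replicate 2 (log2 fold change -0.22, DESeq2 adjusted p = 0.0239). Arl4d in Control PTZ45 against Sal ranged from 3.10 to 3.46 over the libraries left out, Gm38257 from 2.42 to 2.89 and Arl5b from 0.42 to 0.75.

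Replicate numbers are shared across groups, but same-numbered libraries did not deviate together (median r -0.0606 over 40 pairs, 0.0308 over 80 pairs with other numbers). With a replicate block, 2 of the 6 genes were called in PTZ45 against Sal in controls and 2 in CBP-ifKOs against controls in PTZ45, Arl5b not being called in either. The counts over all genes with the block were 73 in place of 204 (PTZ45 against Sal in controls), 94 in place of 225 (against PTZ0), 8 in place of 23 (PTZ45 against PTZ0 in CBP-ifKOs), and, for CBP-ifKOs against controls, 102 in place of 468 in PTZ45, 122 in place of 306 in Sal and 410 in place of 852 in PTZ0.

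Over all genes, edgeR called 4 in place of 58 for PTZ45 against Sal in CBP-ifKOs, 9 in place of 23 against PTZ0, 43 in place of 69 for the genotype difference over Sal and 157 in place of 306 for CBP-ifKOs in Sal. The GC correction gave 21 in place of 58. A fit of all 17 libraries gave 91 in place of 58, 785 in place of 468 in PTZ45 and 614 in place of 306 in Sal. PTZ0 against Sal had 3 calls in controls and 4 in CBP-ifKOs, with 1 each by edgeR, 0 each in the fit of all libraries and 2 with the block in CBP-ifKOs. Leaving out 1 library moved the count by over 1.5 times in 32 of 85 cases. The counts then ranged from 109 to 164 (PTZ45 against Sal in controls) and from 16 to 92 (CBP-ifKOs), from 133 to 499 against PTZ0 in controls, from 38 to 66 and from 50 to 79 for the genotype difference, and, between genotypes, from 153 to 365 in PTZ45, from 127 to 620 in Sal and from 327 to 913 in PTZ0. For PTZ0 against Sal they ranged from 0 to 20 in controls, with 20 without Control Sal replicate 1, and from 2 to 5 in CBP-ifKOs. The cause was not tested.

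Sign changes were all among values that were not called. Arl4a between genotypes in Sal (main -0.0033) was 0.010 by edgeR, 0.00052 with TMM, 0.00021 with the count filter and 0.0011 in the fit of all libraries. With the GC correction, Arl5a between genotypes in PTZ0 was -0.0066 and Arl5b in CBP-ifKO PTZ0 against Sal was -0.020. Over the libraries left out, Arl4a between genotypes ranged from -0.10 to 0.060 in Sal, from -0.037 to 0.12 in PTZ0 and from -0.021 to 0.055 over both. Gm38257 in PTZ0 ranged from -0.14 to 0.16. For PTZ0 against Sal, Arl4a ranged from -0.050 to 0.085 in controls and from -0.0067 to 0.15 in CBP-ifKOs, Arl5b from -0.061 to 0.081 and from -0.033 to 0.049, and Arl4c in CBP-ifKOs from -0.032 to 0.093. In the PTZ45 comparisons, the GC correction turned Arl4a in controls to -0.0014 against Sal and -0.0066 against PTZ0, Arl5a in controls to -0.064 and -0.11, Arl4d in CBP-ifKOs against Sal to 0.0046 and the genotype difference of Arl4c over PTZ0 to -0.0037. Over the libraries left out, values of Arl4d in CBP-ifKOs against Sal ranged from -0.33 to 0.086 and those of Arl5a in controls against PTZ0 from -0.025 to 0.044. Arl4a and Arl4c crossed 0 in controls against both baselines and between genotypes in PTZ45, Arl4c in CBP-ifKOs against PTZ0, and the genotype difference in the response of Arl4a over both baselines and of Arl4c over PTZ0. Between 24 and 116 raw counts of Arl4d or Gm38257 per library outside Control PTZ45 limit their precision there.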

Other observations

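Gm38257 was not the single TEC transcript that stood out in Control PTZ45. Against Sal, 16 of 1469 tested TEC genes were called higher (1.09%, beside 0.939% of all genes) and 0 lower. Of the 16, 12 lay inside a protein-coding gene on the same strand, and in 12 of 12 the log2 fold change was above that of the host. The host was itself called for 3 of the 12, namely Gm38257 in Arl5b and both Gm47075 and Gm47088 in Homer1, which encodes a scaffold of glutamate synapses. Gm47075 had a log2 fold change of 4.37 (SE 0.31) and Gm47088 of 4.20 (SE 0.22), beside 0.42 (SE 0.08) for Homer1. In CBP-ifKOs they had 1.89 and 1.42. C630044B11Rik, inside Ntrk2, the gene of the BDNF receptor TrkB, had 3.03 (SE 0.20) in controls and 1.03 in CBP-ifKOs, beside 0.08 (SE 0.07) for Ntrk2 in controls. Against PTZ0, 23 of 1554 TEC genes were called higher (1.48%, beside 1.18% of all genes) and 2 lower, with 17 inside a host and 17 of 17 above the host, and the host was called for 5 of the 17, counting Homer1 for each of its transcripts. The called genes were selected for a high value, so the comparison with the host is a description without a test.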
